A study of Oryza sativa Japonica Group with 36 samples.

Results

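Proteins that act on histone tails were represented here by 3 genes, each of another class: the sirtuin LOC_Os12g07950, the histone deacetylase LOC_Os02g12380 and the PHD-finger gene LOC_Os11g12650. They were taken from the gene lists of the study by their locus names, and together they account for 3 of the 57381 probe sets on the rice genome array, of which 57258 were not controls of the array and were tested. The probe table gave 3 further probe sets to the deacetylase and none to the others. The sirtuin and the deacetylase had been listed because they were more than 5-fold higher in the line K354 than in C418 in every condition with no cold response of that size, and the PHD-finger gene because it was cold-induced in both lines. The members were thus chosen by measured values, the line difference for the first pair and the cold change at 24 h and 48 h for the last, and those contrasts are described without a test.

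Acetyl groups on the lysines of histone tails loosen chromatin and mark active genes. Histone deacetylases remove them. The classical enzymes do so with a zinc ion, and sirtuins with NAD+ as a cosubstrate, which ties their activity to the redox and energy state of the cell. PHD fingers are small zinc-binding folds that read the methylation state of a histone tail and bring other proteins to it. In plants, proteins of all these kinds take part in gene regulation during stress and development.

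K354 is a cold-tolerant introgression line (BC2F6) that carries segments of the indica variety Bg300 in the background of its cold-sensitive recurrent parent C418. Shoots of each line at the 3-leaf stage were sampled at 4 °C, early (2 h and 6 h), at 12 h, and late (24 h and 48 h), and, as the control, at 25 °C, with 3 biological replicates from separate pots for each of the 12 groups, so 36 arrays in all. Both lines were grown and treated alike, and neither carries a transgene. Each genotype is represented by 1 line, and the control RNA pooled shoots collected at 2 h and 24 h, so no control is matched to a single time. The 5 cold comparisons within a line share its 3 control arrays. A line difference is K354 minus C418, a cold change is cold minus the control of the same line, and both are given on the log2 scale with the standard error (SE) of the limma model across all 57258 probe sets. Values of a probe set are normalized fluorescence intensities. They can be compared between arrays but not closely between probe sets. The 25th percentile of an array, used below to bound dim values, takes a common floor for all probe sets. That floor was not tested.

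Shoot markers were read in every array. The intensities of 5 nuclear photosynthesis genes summed to 40290–53828 in K354 and 23072–54038 in C418, with the lowest sums in C418 after 48 h (23072–34143), and 0 of the 5 had a mean below the 25th percentile of the arrays. Of the root markers 1 of 2 had a mean below it in each line (sums 135–309 in K354 and 113–208 in C418), and of the seed markers 3 of 6 (sums 558–1111 in K354 and 684–1008 in C418), so some root and seed probe sets gave signal as well. Their part in the results was not tested. Array medians lay between 55.5 and 67.9. Fewer cells of a type and less RNA per cell cannot be told apart in whole shoots. Of all probe sets, 50.6% passed an adjusted p of 0.05 (Benjamini-Hochberg, within a comparison) for the cold change at 48 h in K354 and 53.4% in C418.

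The sirtuin gave a clear signal in every K354 array and almost none in any C418 array. Its single probe set is placed on no chromosome by the tables used here, and its locus number puts it on chromosome 12. In the control it read 242.7, 263.6 and 210.3 in K354, against 2.34, 2.22 and 1.94 in C418. After 2 h of cold it read 234.6, 161.2 and 185.0 in K354 and 3.07, 1.26 and 1.92 in C418. No C418 array came near a K354 array in either condition.

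After 6 h the K354 arrays gave 327.4, 310.3 and 287.3, the highest group of the series, and the C418 arrays 1.06, 2.17 and 1.94. After 12 h they gave 310.8, 194.3 and 232.2 in K354, against 1.59, 1.37 and 2.48 in C418. The K354 replicates at 12 h spread most widely of the 6 K354 groups and reached into the range of every other K354 group. After 24 h the K354 arrays read 238.4, 238.7 and 221.2, and after 48 h 233.4, 179.0 and 203.0. The C418 arrays of these times lay between 1 and 3.05. All 18 C418 arrays were below the 25th percentile of their own array (between 26.0 and 30 intensity units), close to the lowest value in the files, so their order carries no information.

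The line difference of the sirtuin was 6.78 in the control, 6.62 after 2 h, 7.55 after 6 h, 7.10 after 12 h, 7.24 after 24 h and 7.2 after 48 h (SE 0.33 each), with a mean of 7.08 (SE 0.13). These are fitted values against C418 intensities near the lowest in the files. As the C418 side is a bound rather than a level, the difference is better given as at least 7.30-fold (2 h) to at least 11.1-fold (6 h), where each C418 array was set to its 25th percentile. Lower RNA and a poorer match of the probes to the C418 allele cannot be told apart from these files. The probe match to either line was not checked here.

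**Figure D1:**
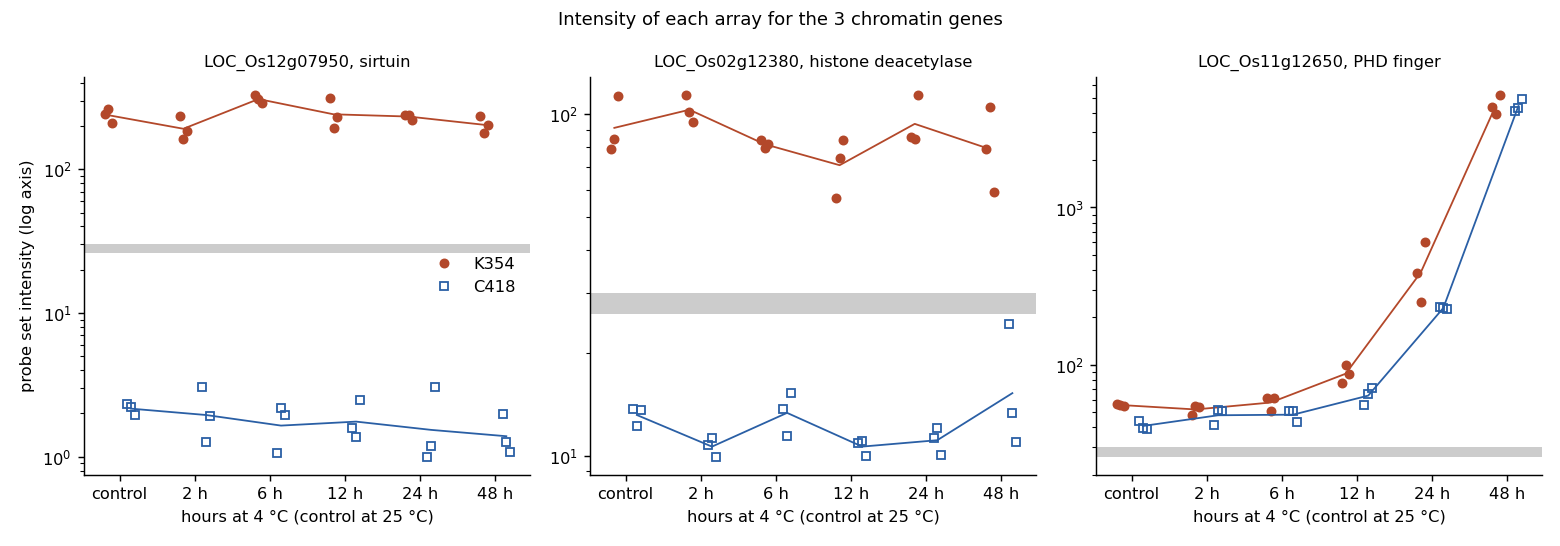
Normalized intensity (log axis) of the probe sets of LOC_Os12g07950, LOC_Os02g12380 and LOC_Os11g12650 in the control and after 2 to 48 h at 4 °C, with K354 as filled circles and C418 as open squares. Each point is 1 array, lines join geometric means of 3 arrays, and the grey band spans the 25th percentiles of the 36 arrays (between 26.0 and 30). The first 2 genes separate the lines at every time, and the third lies above all control arrays of its line from 12 h on.

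No cold change of the sirtuin was called. In K354 the changes were −0.31, 0.37, 0.02, −0.03 and −0.22 in the order of time, and 0 of the 10 over both lines passed the test (limma, adjusted p 0.104–0.974), where 34.6% of all probe sets did on average over these 10 comparisons. None of the 10 had an unadjusted p under 0.05. The gene was listed as having no cold response over 5-fold, and its C418 values carry no order. The count and the share of all probe sets are therefore not alike. In ascending order of the K354 geometric means the groups ran 2 h, 48 h, 24 h, control, 12 h and 6 h, and each neighbour in this order overlapped the next. All 3 K354 arrays at 6 h were nevertheless above the 3 control arrays. The spread used by the model includes that of the C418 values near 1, which is large on the log scale. With only the 2 groups of the comparison in the fit, the 6 h change of 0.37 had an adjusted p of 0.0377, and with low values set to the 25th percentile, 0.0235.

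The difference between the lines in their cold change was not detected for the sirtuin at any time (interaction −0.17 to 0.76, SE 0.46, adjusted p 0.681–0.989, 0 of 5 at an unadjusted p under 0.05). Over all probe sets 2.64% were called in these 5 interactions. The C418 side of each interaction rests on values near the lowest in the files. The test therefore cannot show whether the cold changes of the lines were alike.

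The histone deacetylase LOC_Os02g12380 lies on chromosome 2 at 6470287–6476221 in the RefSeq gene table (assembly ASM3414082v1, a different build from that of the array design). Its listed probe set was also high in K354 and low in C418. In the control it read 78.8, 84.6 and 113.1 in K354, against 13.7, 12.2 and 13.6 in C418. After 2 h it read 113.4, 101.2 and 94.8 in K354 and 10.7, 11.3 and 9.92 in C418. The lines were apart in each condition.

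After 6 h the K354 arrays gave 83.6, 79.5 and 81.6 and the C418 arrays 13.7, 11.4 and 15.2. After 12 h they gave 56.8, 74.4 and 83.8 in K354, against 10.89, 11.01 and 9.99 in C418. These K354 values at 12 h included the lowest of the 18. After 24 h the deacetylase read 85.5, 84.2 and 113.4 in K354 and 11.3, 12.1 and 10.0 in C418. After 48 h it read 79.0, 104.9 and 59.2 in K354, against 24.2, 13.3 and 10.97 in C418, where the first C418 replicate stood above the other two and still below every K354 array. All 18 C418 arrays were below their 25th percentile and none of the K354 arrays was.

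Its line difference was 2.79 in the control and 3.28, 2.61, 2.74, 3.08 and 2.37 over the 5 times in the cold (SE 0.21), as fitted against the dim C418 values, of which the 48 h value (5.18-fold) was nearest to the 5-fold limit of the list. Set against the 25th percentile of the C418 arrays, the bounds ran from at least 2.52-fold (12 h) to at least 3.92-fold (2 h). No cold change of this probe set passed the test in either line (0 of 10, −0.36 to 0.21, SE 0.21, adjusted p 0.202–0.969, none at an unadjusted p under 0.05), against 34.6% of all probe sets. This probe set too was listed as having no cold response over 5-fold, and its C418 values were dim. The count and that share are therefore not alike. The interaction was not detected either (0 of 5, −0.42 to 0.48, SE 0.29, adjusted p 0.458–0.966, background 2.64%). With every C418 array below its 25th percentile, this test cannot show whether the cold changes of the lines were alike. The 3 arrays of C418 were below the 3 control arrays at 2 h, 12 h and 24 h, by 0.31, 0.31 and 0.24 log2 units, within a range where all arrays were dim.

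Of the 3 other deacetylase probe sets, 1 gave no usable signal, with 1.26–4.81 in K354 and 1–3.78 in C418. The second, whose name ends in _s_at, read 52.6, 52.2 and 61.5 in K354, against 24.6, 25.3 and 27.3 in C418, in the control. The third, whose name ends in _x_at, read 35.9, 47.9 and 49.7 in K354 and 34.5, 25.9 and 32.1 in C418. In both of these probe sets every K354 array lay above every C418 array within each of the 6 conditions.

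The line difference ran from 0.87 to 1.56 for the _s_at probe set and from 0.43 to 0.71 for the _x_at probe set, and neither reached 5-fold in any condition. As bounds, the listed probe set gave at least 2.52-fold to at least 3.92-fold, against fitted values of 1.83- to 2.95-fold for the _s_at and 1.34- to 1.64-fold for the _x_at probe set. How far the listed and the _s_at probe set differ in size cannot be read from values this dim. Suffixes of this kind mark probe sets whose probes can also match other transcripts. Pearson's r with the listed probe set over the 36 arrays was 0.92 for the _s_at probe set, and 0.76 over the 18 K354 arrays. The arrays share the line as a source, so the value over all 36 is a description of that split. Of the cold changes of these 2 probe sets, 1 of 10 was called in each: a rise of 0.53 at 2 h in K354 for the _s_at probe set (SE 0.19, adjusted p 0.0364) and a fall of 0.44 at 48 h in C418 for the _x_at probe set (SE 0.15, adjusted p 0.0121), with 27.0% and 53.4% of all probe sets called in these comparisons.

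A second histone deacetylase gene, HDA703, lies 22.7 kb before LOC_Os02g12380 on the same chromosome (6447597–6453640). HDA703 belongs to the same zinc-dependent family. In the control its probe set read 93.7, 111.5 and 116.2 in K354, against 96.0, 97.5 and 91.6 in C418, so the lines overlapped. After 24 h of cold it read 46.2, 37.1 and 37.8 in K354 and 30.5, 35.5 and 29.3 in C418. After 48 h it read 27.5, 29.1 and 34.7 in K354, against 51.9, 36.2 and 35.0 in C418, below the control arrays of the line in all cases.

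HDA703 fell with cold in both lines. The cold changes in K354 were −0.69, −0.39, −0.89, −1.41 and −1.82 in the order of time, and those in C418 −0.93, −0.77, −1.17, −1.58 and −1.23 (SE 0.19 each). Of these 10, 9 passed the test (limma, adjusted p at most 0.00914) and the exception was K354 at 6 h (adjusted p 0.168), where 34.6% of all probe sets passed. The K354 call at 12 h, where the replicates spread widely, was lost with only these 2 groups in the fit (adjusted p 0.0789). Its line difference was called in 1 of 6 conditions, 6 h, at 0.55 (SE 0.19, adjusted p 0.0470), and that call was lost under 3 scalings and when any of most single arrays was left out. The interaction was called at none of the 5 times (adjusted p 0.217–0.929, 1 of 5 at an unadjusted p under 0.05). No cold change was called for the listed probe set of LOC_Os02g12380, against 9 of 10 for HDA703. The former was listed as having no cold response over 5-fold, and its C418 arrays were dim. These 2 counts are therefore not alike. Whether probes of one deacetylase gene match the other was not checked.

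**Figure D2:**
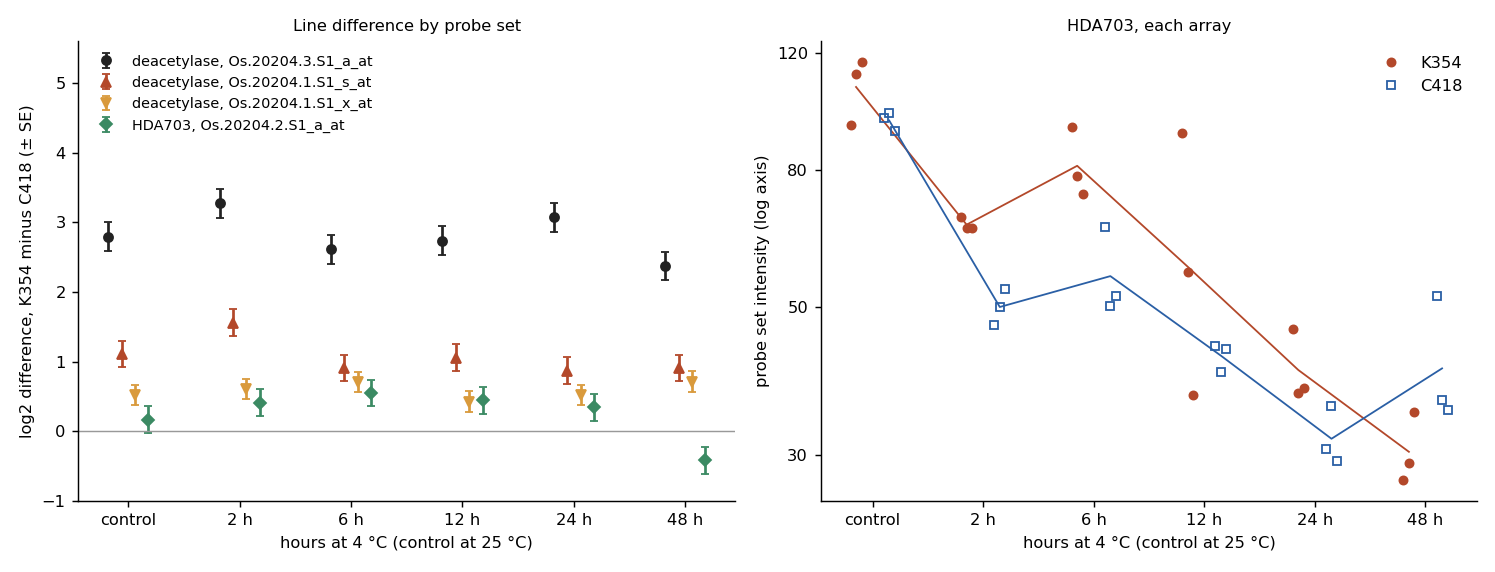
Left, line difference (log2, K354 minus C418, ± SE of the model) of 3 probe sets of LOC_Os02g12380 and of the nearby gene HDA703 in the control and after 2 to 48 h at 4 °C. Right, intensity of HDA703 in each array (log axis), with K354 as filled circles, C418 as open squares and lines through geometric means. The listed deacetylase probe set, fitted against dim C418 values, lies between 2.37 and 3.28, the 2 others between 0.43 and 1.56, and HDA703 between −0.42 and 0.55.

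The PHD-finger gene LOC_Os11g12650 (chromosome 11, 7529091–7532947, same assembly) moved with time in the cold and little with the line. It was chosen for its cold change, and the sirtuin and the deacetylase for their line difference. The contrast between them thus came with the choice. The probe set of LOC_Os11g12650 read 55.9, 55.4 and 54.9 in the K354 control, against 44.0, 39.4 and 39.0 in the C418 control. After 2 h it read 48.1, 54.4 and 53.4 in K354 and 41.0, 51.8 and 50.8 in C418. After 6 h it read 60.9, 50.6 and 61.4 in K354, against 51.1, 50.5 and 43.1 in C418. Over these first hours the values stayed near those of the control.

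The gene was higher from 12 h on. At 12 h it read 77.0, 99.7 and 87.5 in K354, against 55.4, 64.9 and 71.4 in C418, above all control arrays of the line. At 24 h it read 385.5, 249.6 and 598.7 in K354 and 231.7, 229.7 and 226.8 in C418. On the log2 scale the K354 replicates at 24 h differed by more than those of any other group, while the C418 replicates were nearly equal. At 48 h it read 4357, 3921 and 5176 in K354, against 4084, 4304 and 4906 in C418, and the lines overlapped.

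The cold change at 12 h passed the test in both lines, at 0.66 in K354 (SE 0.18, adjusted p 0.00495, where 31.2% of all probe sets passed) and 0.64 in C418 (SE 0.18, adjusted p 0.00641, where 29.4% passed). Those at 2 h and 6 h did not (K354 −0.09 and 0.05, C418 0.23 and 0.24), so 2 of 6 tested cold changes were called against 26.6% of all probe sets over the same 6. The changes that had put the gene on its list were 2.80 at 24 h and 6.33 at 48 h in K354, and 2.49 and 6.76 in C418 (SE 0.18), or 80.4-fold in K354 and 108-fold in C418 at 48 h. They ranked 24th and 25th from the top of 57258 at 48 h, where 2.18% of all probe sets in K354 and 2.67% in C418 rose over 5-fold. The values nearest the 5-fold limit were 6.97-fold (K354) and 5.63-fold (C418) at 24 h, inside it, and 1.58-fold (K354) and 1.56-fold (C418) at 12 h, outside it.

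Both calls at 12 h depended on how the arrays were scaled. The 27 hybridization controls, bacterial transcripts spiked into each sample, read 0.37 higher at 12 h than in the control in K354 and 0.25 higher in C418, and 0.67 and 0.81 higher at 48 h. With each array scaled to them, the 12 h change was 0.29 in K354 (adjusted p 0.173) and 0.40 in C418 (adjusted p 0.101), and the 48 h changes were 5.66 and 5.95.

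The PHD-finger gene was on average somewhat higher in K354. The mean line difference over the 6 conditions was 0.34 (SE 0.07, adjusted p 0.000404), a comparison in which 37.7% of all probe sets were called. By condition it was 0.44 in the control and 0.12, 0.26, 0.46, 0.75 and 0.01 over the 5 times in the cold (SE 0.18), and 1 of 6 was called, at 24 h (adjusted p 0.00431, where 11.4% of all probe sets were). Without the third K354 replicate at 24 h that difference was 0.44 (adjusted p 0.0768), and with only these 2 groups in the fit its adjusted p was 0.233. The control arrays of the lines did not overlap, but their difference was not called (adjusted p 0.145). It was called with only these 2 groups in the fit (adjusted p 0.00695) and once the second or the third K354 replicate of 24 h was left out (adjusted p 0.0333 and 0.0331). No difference in the cold change between the lines was called (0 of 5, −0.43 to 0.31, SE 0.25, adjusted p 0.352–0.985, none at an unadjusted p under 0.05, background 2.64%). The gene was listed for a cold rise in both lines at 24 h and 48 h. The interactions at these times are differences of the changes that chose it, so the count and the background are not alike.

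The genes most alike to each probe set over the 36 arrays were taken by Pearson's r among probe sets with a described product. Probe sets that the probe table gives to several genes were left out. Without that limit 8 probe sets had a higher r than the first gene named for the sirtuin. For the deacetylase there were 4, and for the PHD-finger gene 10. Each count includes the probe set of the member itself. The genes named for the sirtuin were the F-box gene LOC_Os11g32940, the wali7 gene LOC_Os11g09864, the cytochrome P450 genes LOC_Os06g30179 and LOC_Os11g27730 and the NBS-LRR gene LOC_Os11g12260. Their r was 0.990–0.991. Over the 18 K354 arrays r lay between −0.20 and 0.64 for these 5, and none is given over the C418 arrays, where the sirtuin values carry no order. F-box proteins select targets for protein breakdown, and NBS-LRR proteins are intracellular receptors for pathogens. The locus names are those of the study. The probe table gives the probe set of LOC_Os11g12260 to a gene on chromosome 1 (29558835–29562667). It gives those of LOC_Os06g30179 and LOC_Os11g09864 to no gene.

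The genes most like the deacetylase included 3 of the same, namely LOC_Os11g12260 (r 0.98), LOC_Os11g09864 (r 0.98) and LOC_Os11g32940 (r 0.98), with LOC_Os02g21260 and LOC_Os07g06500. Over the 18 arrays of K354 alone, r with the deacetylase lay between −0.32 (LOC_Os11g32940) and 0.55 (LOC_Os02g21260) for these genes. The sirtuin and the deacetylase themselves had r of 0.97 over all 36 arrays, which the line splits, and −0.40 over the 18 arrays of K354.

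The genes most like the PHD-finger gene kept their likeness within each line. RSS1, which maintains dividing cells under salt stress in rice, had r of 0.98 over the 36 arrays, 0.99 within K354 and 0.99 within C418. The kinase LOC_Os03g49750 (r 0.98), the alternative oxidase AOX1 (r 0.98), the tubulin gene pTUB22 (r 0.98) and the auxin-response gene IAA19 (r 0.98) were next, each with at least 0.97 within a line. Alternative oxidase lets electrons bypass part of the mitochondrial respiratory chain. Its gene spanned 229–2399 in K354 and 274–3054 in C418 over the 18 arrays of a line. These arrays share the time in the cold.

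The paper roughly maps donor segments of K354 by markers. It places the sirtuin in one on chromosome 12 and a histone deacetylase in one on chromosome 2. A cluster of genes related to cell death is placed in one on chromosome 11. The limits of these segments were not used here. The genes around each member were examined in the control for the line difference. There 9.47% of all probe sets were called, 4.78% higher and 4.70% lower in K354, and 1.01% were past 5-fold as well. Around the deacetylase, 3 of 20 neighbours with a probe set were higher in K354 and 0 lower, and 0 of 20 were past 5-fold in any of the 6 conditions. The nearest on each side, LOC4328719 at 4.16 kb before and LOC4328722 at 21.9 kb after, differed by −0.43 and 0.02. The bound of the deacetylase itself in the control was at least 3.26-fold. It was chosen for its line difference and its neighbours were not.

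Around the PHD-finger gene, 5 of 20 neighbours were higher in K354 and 3 lower. Of these, 3 were more than 5-fold higher in K354 in each of the 6 conditions, all on the same side: the NBS-LRR gene LOC_Os11g12000 at 459 kb (4.72 in the control, 4.29–5.29 over the conditions), LOC4350129 at 264 kb (3.37, 3.37–3.79) and the RPM1-type resistance gene LOC_Os11g12340 at 232 kb (7.61, 5.80–7.61). In C418 LOC_Os11g12340 was below the 25th percentile in each condition, which bounds its difference at no less than 16.8-fold (48 h) to 80.1-fold (control). The nearest neighbours, at 114 kb and 68.1 kb, differed by 0.14 and −0.21. The difference of the PHD-finger gene itself was 0.44 there.

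The position of the sirtuin was taken here only from its locus number. That number lies between LOC_Os12g06260 (start 3006957) and LOC_Os12g08130 (start 4173997, same assembly) on chromosome 12. Its place among the 66 genes with a probe set, both of these loci included, was not known. This interval was chosen after the data had been seen. In the control 6 of the 66 were higher in K354 and 20 lower, 39.4% against 9.47% of all probe sets, with a median of −0.07. Past 5-fold there were 0 higher and 6 lower in K354: LOC4351587 (−3.01), LOC4351605 (−2.44), LOC4351639 (−3.10), LOC4351664 (−2.55), LOC4351668 (−2.82) and LOC4351673 (−3.54, or at least 10.3-fold as a bound). By its brightest probe set, no gene of the interval was over 5-fold higher in K354 in any condition. Genes to which the probe table gives no probe set are not among the 66. The sirtuin, at least 7.30-fold higher in each condition, was chosen for such a difference and these genes were not. The 2 are therefore not alike. The paper also names a protein phosphatase gene of the donor segment on chromosome 12 as highly enriched in K354.

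**Figure D3:**
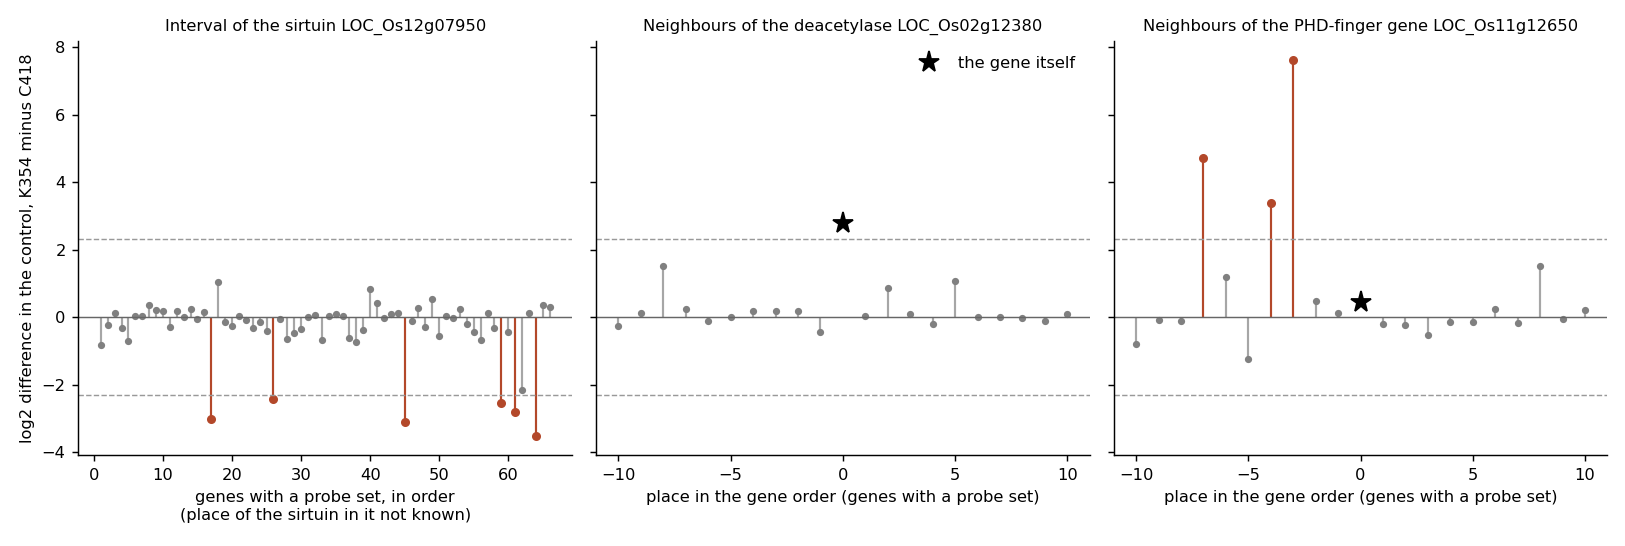
Line difference in the control (log2, K354 minus C418) of the 66 genes of the sirtuin interval and of the 20 genes around LOC_Os02g12380 and LOC_Os11g12650, in the order of the chromosome. Dashed lines mark 5-fold, coloured stems are past it, and stars are the genes themselves. Genes past 5-fold are 6 lower in the sirtuin interval, 0 around the deacetylase and 3 higher before the PHD-finger gene.

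Other chromatin genes that the annotation names by symbol served as the setting, 21 of 27 with a probe set (the brightest where a gene had several). In the control 1 of 21 was called between the lines (4.76%, against 9.47% of all probe sets). This was CMT3, a DNA methyltransferase that acts on non-CG sites, with 103.3 ± 11.2 in K354 and 43.6 ± 2.0 in C418 (SD, n = 3 each), a difference of 1.24 (adjusted p 3.5e-05). No symbol in the annotation matched a further sirtuin, and the only deacetylase matched by symbol was HDA703.

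With cold, the same 21 genes went both ways. At 48 h 7 were higher, 9 lower and 5 not called in K354, and 7, 9 and 5 in C418, or 76.2% called in each line against 50.6% and 53.4% of all probe sets. Their median change was −0.12 in K354 and −0.06 in C418, and that of all probe sets −0.03 and −0.02. Scaling to the hybridization controls shifted the median of all probe sets by −0.67 in K354 and −0.81 in C418 at 48 h and gave 3 higher and 15 lower in K354, and 3 higher and 14 lower in C418. Quantile normalization gave 7 higher and 10 lower in both lines.

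Among the acetyltransferases, which add the groups that deacetylases remove, GCN5 fell and ELP3 rose. GCN5 averaged 213.2 ± 20.7 after 48 h against 813.1 ± 15.0 in the control in K354, and 195.2 ± 28.5 against 936.2 ± 39.6 in C418 (SD, n = 3 each). The changes were −1.94 (adjusted p 1.06e-15) and −2.27 (adjusted p 2.37e-17). ELP3, the catalytic subunit of Elongator, rose by 1.03 in K354 (adjusted p 4.27e-11) and 1.04 in C418 (adjusted p 2.41e-11).

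The histone demethylase JMJ706, which removes methyl groups from lysine 9 of histone H3 in rice, had the highest 48 h change of the 21 in both lines. Another probe set of it was on a list of the study chosen for cold change, so this is a description. It averaged 2658 ± 73.0 after 48 h against 474.3 ± 23.8 in the control in K354, and 2381 ± 74.7 against 346.3 ± 4.4 in C418, changes of 2.49 and 2.78. Ehd3, a PHD-finger protein that promotes flowering in rice, rose by 1.55 in K354 and 1.92 in C418. These 4 genes kept their direction with every scaling tried. The H2B histones were lower early: 5 of 5 fell at 2 h in K354 (median −0.63) and 5 of 5 in C418 (median −0.64), where 20.2% and 21.7% of all probe sets fell, and H2B.6 fell by 0.97 in K354 and 0.94 in C418. Near-identical H2B genes may share probes, so these 5 are not separate measurements.

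**Figure D4:**
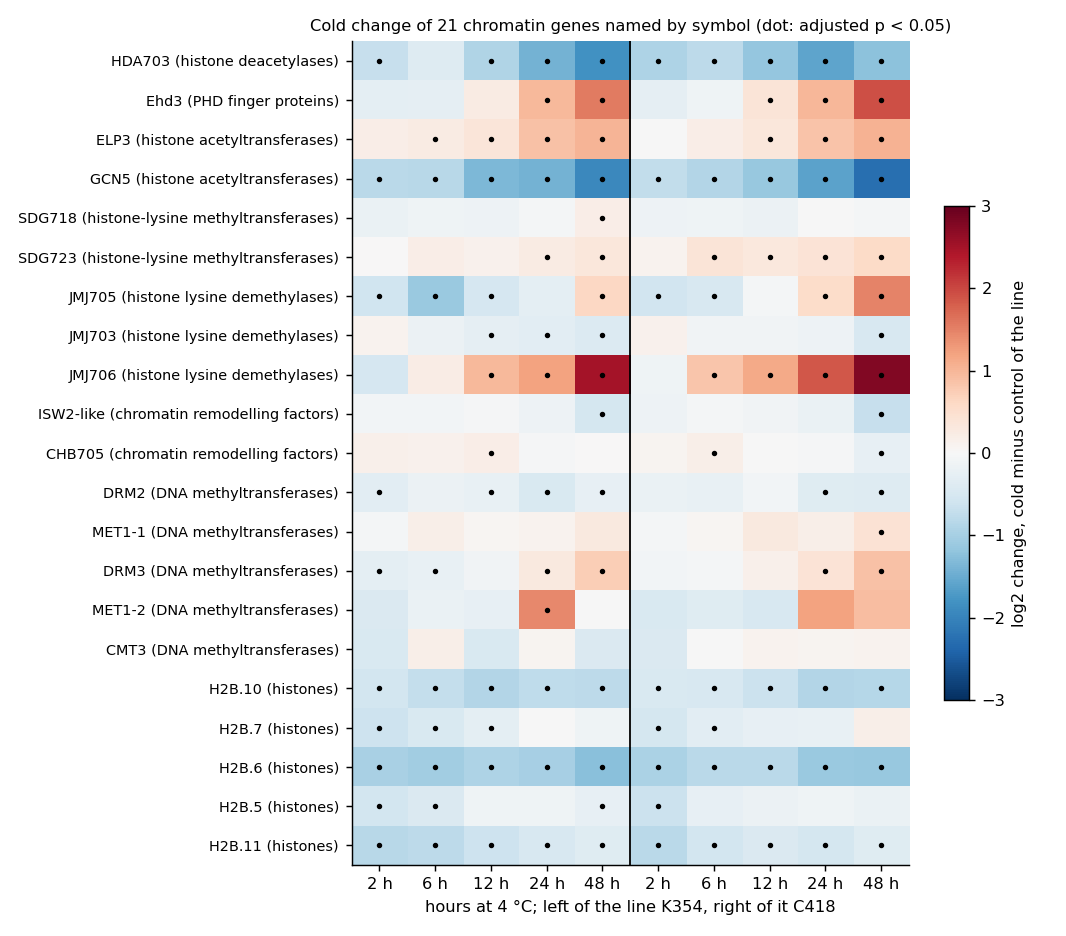
Cold change (log2, cold minus control of the same line) of the 21 chromatin genes with a symbol and a probe set, K354 left and C418 right of the black line, at 2 to 48 h. A dot marks an adjusted p under 0.05. GCN5, HDA703 and H2B.6 are blue and JMJ706, Ehd3 and ELP3 red at 48 h in both lines.

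The lists of the study held 12 other probe sets of chromatin genes, 1 of them for JMJ706, chosen for their cold change, so their cold values are a description. The deacetylase LOC_Os06g38470 (annotated HDA19) had 6.85 ± 1.67 after 48 h against 55.3 ± 5.78 in the control in K354, and 6.06 ± 0.60 against 62.8 ± 4.5 in C418 (SD, n = 3 each). Its 48 h arrays were below their 25th percentile, which bounds the difference at 1.95-fold lower or more in K354 and 2.25-fold lower or more in C418. The bromodomain genes LOC_Os02g38980 (3.04 in K354, 3.16 in C418) and LOC_Os08g09340 (2.77 and 2.73) were among the highest. Bromodomains bind acetylated lysines. A second PHD-finger gene, LOC_Os03g60390, had 2.38 in K354 and 1.33 in C418. None of the 12 reached the 48 h change of LOC_Os11g12650, and of the line differences in the control, which did not choose them, 2 of 12 were called (16.7%, against 9.47% of all probe sets).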

How the data were processed

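RNA of whole shoots was hybridized to 36 Affymetrix rice genome arrays. The deposited values are intensities on a linear scale that the authors computed from the scans. The labels name MAS5 and the methods a scan in the Affymetrix operating software and normalization in dChip, so which of them set the scale is not given in the sources used here. Values were taken as deposited, on the log2 scale, without control probe sets. Of the per-sample columns, 0 were left unused. One limma model (3.58.1, R 4.3.3) of the 12 groups gave all comparisons, with Benjamini-Hochberg adjustment over 57258 probe sets. A call was an adjusted p under 0.05, and a 5-fold limit, that of the methods, was the second rule. A t-test, which the study names beside its gene counts while its methods name SAM, was an alternative. SAM was not run here. Arrays have no depth, and 3 arrays a group limit the precision. Where all 3 arrays of a group were below their 25th percentile, the fold was in most cases given against that percentile as a bound. Some dim groups have fitted values only, such as C418 in the control for the _s_at probe set of the deacetylase.

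The 3 genes, the lists and the tests were chosen with earlier results of these data known. Named were all probe sets of the 3 genes, the 5 described genes most alike to each by Pearson's r, deacetylases and sirtuins with a symbol, up to 3 of each other list by size of change, and neighbours past 5-fold. Genes were named through the locus names of the study, the probe table and the RefSeq gene table. On simulated data, the model called 43 of 50 probe sets changed 2-fold and 48 of 50 changed 3-fold, and 6 of 57058 unchanged ones. Alternatives were 3 scalings, a filter on dim probe sets, a floor, a replicate block, the 2 groups of a comparison alone, ratios of arithmetic means and leaving out each array. Nothing shows that the pots were grown at separate times, so p-values measure the spread between these pots. Tables were made with Python 3.11.15, numpy 2.4.6 and pandas 2.3.3, and figures with matplotlib 3.10.9.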

Additional observations from a re-analysis of the deposited data

Results flagged for a closer look

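The histone demethylase JMJ705, which acts on lysine 27 of histone H3 in rice, differed between the lines in its cold change, by a test of the difference itself. The interaction, K354 minus C418, was −0.84 at 24 h (SE 0.18, limma, adjusted p 0.00836) and −0.87 at 48 h (SE 0.18, adjusted p 0.0021), in comparisons where 1.56% and 7.88% of all probe sets were called. At 48 h JMJ705 averaged 260.4 ± 16.1 in K354 and 606.1 ± 84.9 in C418, and in the control 167.8 ± 5.65 in K354 and 213.1 ± 13.6 in C418 (SD, n = 3 each). Leaving out each array kept both calls (adjusted p up to 0.0324 at 24 h and 0.00843 at 48 h). The 24 h call was lost with scaling to the hybridization controls (−0.70, adjusted p 0.118), with the groups of the comparison alone (adjusted p 0.051) and with a separate test of each probe set after adjustment (adjusted p 0.11). With scaling to the hybridization controls, the 48 h change of JMJ705 in K354 was −0.03 (limma, adjusted p 0.837) in place of 0.63. JMJ705 is among the 21 chromatin genes named by symbol, and the interactions of the others are not given here. Settings for JMJ705 were added after seeing the data.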

How the results depend on the processing

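With values below the 25th percentile set to it, the mean line difference of the sirtuin was 3.08 in place of 7.08, and that of the deacetylase 1.64 in place of 2.81. The setting replaces all their C418 values. Scaling to the hybridization controls gave 5.66 in K354 and 5.95 in C418 for the 48 h change of the PHD-finger gene and called 0 of its 6 changes at 2 to 12 h. It called 7 of the 20 cold changes of the sirtuin and the deacetylase, all lower, and gave −0.60 (adjusted p 0.0149) in place of 0.21 for the 48 h change of the deacetylase in C418. For these 20, where none was called, the floor gave 1, the groups of the comparison alone 4, the t-test 3 unadjusted and 2 adjusted. That t-test, unadjusted, called 2 of 6 line differences and 2 of 5 interactions of the PHD-finger gene, and 1 of 10 interactions of the others. Leaving out each array gave 7.03–7.16 for the sirtuin, 2.77–2.87 for the deacetylase, 6.22–6.42 in K354 and 6.69–6.82 in C418 for the PHD-finger gene at 48 h, 1–3 of 6 of its line differences and 0–1 of the 20 cold changes. The call among those 20 came without the third C418 replicate of 24 h or the first of 48 h, both for the sirtuin at its floor. Of 2970 repeats of 66 single tests, 2894 kept their direction and side of the threshold, 40 lost a call, 35 gained one and 1 turned. Ratios of arithmetic means have no test of their own, so they gave no counts. Settings for HDA703, JMJ705, the mean line difference of the PHD-finger gene, the sirtuin interval and the scaled lists were chosen after seeing the data.

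Replicate numbers did not pair the samples. The mean correlation of deviations was 0.00287 between same-numbered arrays of different groups and −0.00132 between others, and 42 of 198 same-numbered pairs were over 0.1. With the number as a block, the deacetylase and the sirtuin had the same mean line differences, 2.81 and 7.08, and no count moved by over 1.5 times.

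The C418 values of the sirtuin and the deacetylase lie at the dim end of the array, where an intensity is not a level. The probe match to donor alleles was not checked, and control shoots were not matched to single times. Direction of small cold changes depends on the scaling.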
